A study of Mus musculus with 7 samples.

Results

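The NF-kB transcription factors are dimers built from 5 subunits, and the IkB proteins bind these dimers and set whether they reach DNA. The 10 genes described here encode the subunits Nfkb1, Nfkb2, Rel, Rela and Relb and the IkB family members Nfkbia, Nfkbib, Nfkbie, Bcl3 and Nfkbiz. They were taken by name from the 48795 gene identifiers of the count table, and all 10 passed the filter on low counts among 11618 tested genes. RNA was sequenced from light zone germinal centre B cells sorted from the spleens of mice 10 days after intravenous injection of sheep red blood cells, in 3 samples with the genotype label MIZ1KO and 4 with the label Control. The library titles call the first group MizFF and the second eYFP; the age and strain of the mice, and how and in which cells MIZ1 was deleted, are not stated by the labels. Separate animals are not stated either, so the p-values speak of the spread over these 7 samples, and some of that spread may be technical.

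In the canonical pathway, signals from the B cell receptor, CD40 or Toll-like receptors activate a kinase complex that marks the classical IkBs for destruction, and dimers of p50 with RelA or c-Rel then enter the nucleus. In the non-canonical pathway, the p100 product of Nfkb2 is processed to p52, which pairs with RelB. The light zone is where germinal centre B cells meet antigen and T cell help, which both signal to NF-kB, and several NF-kB and IkB genes are themselves NF-kB targets, which makes feedback loops.

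Because of this feedback, the promoters of the genes were searched on both strands for the kB consensus, the 10-base sequence that NF-kB dimers recognise. RefSeq promoter windows on GRCm38.p6, reaching from 250 bases before to 50 bases after a transcription start, were at hand for 7 of the 10 genes (Nfkb2, Rel, Rela, Bcl3, Nfkbia, Nfkbib and Nfkbie). Of their 9 windows 7 held at least 1 match, in 5 genes and with 3 windows from Nfkb2 alone, while 8.46% of all 32851 promoter windows held one. The E-box CACGTG, the site of MYC and its partner MAX, was in none of the 9 windows of these 7 genes and in 7.15% of all windows. So few windows cannot tell an absence from that share. The upstream parts of 3 promoters are shown because they differ in these matches. The first of 3 Nfkb2 windows carries 3 matches, 2 of them overlapping (chr19:46304487-46304736, plus strand). The other windows of Nfkb2, which overlap each other, held GGAATGTCCC and, in the bases they share, GGGACTTTCC. Nfkbia carries 1 (chr12:55492648-55492897, minus strand), and Rela carries none (chr19:5637291-5637540, plus strand). Each is written 5′ to 3′ along the gene's own strand with the matches in capitals.
Nfkb2: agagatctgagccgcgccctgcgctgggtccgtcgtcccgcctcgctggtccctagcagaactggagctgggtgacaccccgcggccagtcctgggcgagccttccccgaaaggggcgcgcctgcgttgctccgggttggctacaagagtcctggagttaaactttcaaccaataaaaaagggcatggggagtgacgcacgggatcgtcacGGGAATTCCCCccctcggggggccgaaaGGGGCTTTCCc
Nfkbia: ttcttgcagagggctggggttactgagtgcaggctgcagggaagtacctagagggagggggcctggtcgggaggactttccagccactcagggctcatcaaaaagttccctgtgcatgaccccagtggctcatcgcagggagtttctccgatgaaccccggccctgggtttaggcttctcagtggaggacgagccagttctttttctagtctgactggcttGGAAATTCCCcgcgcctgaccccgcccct
Rela: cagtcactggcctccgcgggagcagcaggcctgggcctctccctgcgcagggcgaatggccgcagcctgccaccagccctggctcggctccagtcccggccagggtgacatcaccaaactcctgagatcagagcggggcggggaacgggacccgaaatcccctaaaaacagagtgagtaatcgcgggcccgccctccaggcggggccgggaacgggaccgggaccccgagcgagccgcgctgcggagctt
The 2 overlapping matches of Rel began with GGGAAATCCC, 92 bases before the start, the match of Nfkbie was GGGGGATTCC, 106 bases before it, and that of Bcl3 was GGGAAGTCCC, at base 3 after it. Nfkbib had none. A match is a description of the letters and says nothing of binding in these cells.

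Of the 10 genes, Rela and Bcl3 rose in MIZ1KO. Rela, which encodes the activating subunit of the classical p50 dimer, was 2.5-fold higher, and Bcl3, a nuclear IkB protein that works as a cofactor of p50 and p52, was 2.15-fold higher. For the other 8 the adjusted p was above the threshold, and 0 members were called lower by edgeR and limma-voom, while DESeq2 called Nfkbiz lower. The test was the quasi-likelihood test of edgeR with Benjamini-Hochberg adjustment over 11618 genes and a threshold of 0.05, which called 5.96% of all genes, 1.90% as higher and 4.05% as lower. At an unadjusted p under 0.05, 6 members lay higher and 1 lower, where 24.6% of all genes pass in either direction. The median log2 fold change over the 10 was 0.59, with 8 above 0, against -0.03 over all tested genes, of which 47.7% lay above 0. With the correction for GC content and length described further on, the members' median was 0.29 with 6 above 0 and 4 at an unadjusted p under 0.05, against a median of 0.09 over all genes. In 7 of the 10 the MIZ1KO and Control libraries did not overlap in CPM, the unit of counts after scaling for library size, 5 with MIZ1KO higher and 2 with it lower. Over all tested genes 19.5% had no overlap, 8.74% higher and 10.8% lower.

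**Figure D1:**
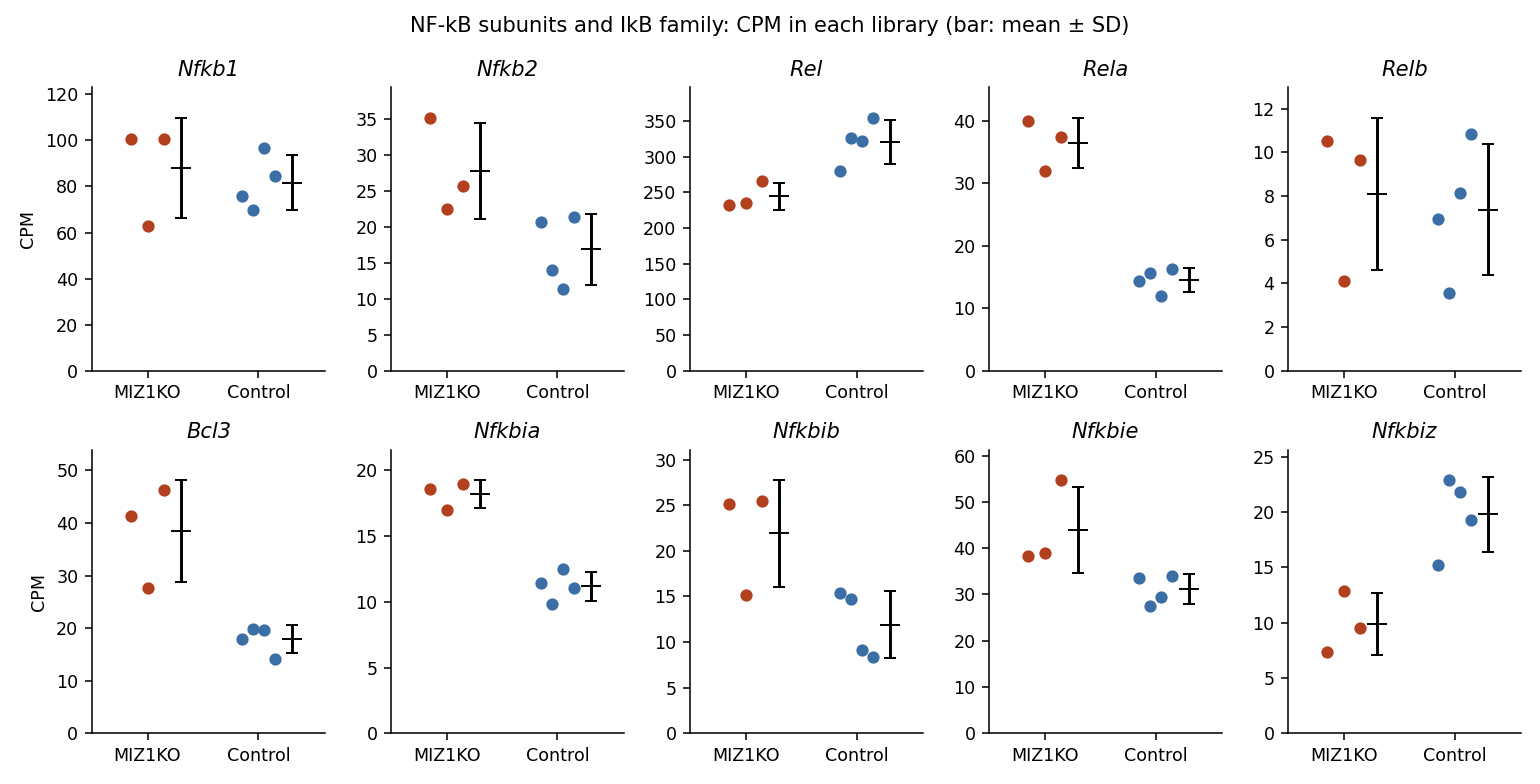
CPM of the 10 genes in each library, with 3 MIZ1KO and 4 Control points per panel and the mean ± SD of each group beside them; each vertical axis starts at 0. Rela separates most clearly, with MIZ1KO libraries from 32.1 to 39.98 CPM and Control libraries from 11.9 to 16.2 CPM, while the groups of Nfkb1 and Relb are not separated.

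Rela had 39.98, 32.1 and 37.5 CPM in the MIZ1KO libraries, against 14.3, 15.7, 11.9 and 16.2 CPM in the Control libraries. All MIZ1KO libraries lay above all Control libraries, with a gap wider than the range of either group. On average this was 36.5 ± 4.04 CPM for MIZ1KO against 14.5 ± 1.92 CPM for Control (SD over 3 and 4 libraries), and the log2 fold change was 1.32 ± 0.24 (SE) with an adjusted p of 0.0095 (edgeR). By p-value Rela stood at place 41 of the 11618 genes. The gene (ENSMUSG00000024927) lies on chromosome 19 from 5637483 to 5648130 in GRCm38, on the plus strand, and no other annotated gene overlaps it. It rested on 91 to 372 counts per library. Leaving out MIZ1KO replicate 1 ended the call (adjusted p = 0.0629, edgeR), while leaving out each of the other 6 libraries kept it; over all 20 alternatives the adjusted p ran from 4.47e-05 to 0.143 and the log2 fold change stayed above 0.

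Rel, which encodes c-Rel and had the most RNA of the subunit genes, measured lower. It had 232, 234 and 267 CPM in MIZ1KO, against 280, 327, 323 and 355 CPM in Control. The groups did not overlap, but the log2 fold change of -0.39 ± 0.20 (SE) did not pass (adjusted p = 0.241, edgeR). Rel (ENSMUSG00000020275) lies on chromosome 11 from 23736847 to 23770970, on the minus strand, and is the most deeply counted of the 10 with 1657 to 3540 counts per library.

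The balance of Rel and Rela RNA can be read from their ratio within each library, which does not depend on how libraries are scaled. The log2 ratio of Rel to Rela in CPM was 2.53, 2.86 and 2.82 in MIZ1KO, against 4.27, 4.36, 4.73 and 4.43 in Control. The MIZ1KO ratios all lay below the Control ratios, which the lack of overlap of both genes already fixes, so the ratio is given as a description with no test. The difference of MIZ1KO minus Control was -1.71, and it was -0.95 with the GC and length correction.

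Nfkb1 encodes p105, the precursor of p50, and overlapped between the groups, at 88.1 ± 21.8 CPM for MIZ1KO against 81.7 ± 11.8 CPM for Control (SD over 3 and 4 libraries). The log2 fold change was 0.10 ± 0.22 (SE; adjusted p = 0.815, edgeR). MIZ1KO replicate 2 had 62.9 CPM, the lowest of all libraries, while the other MIZ1KO libraries both had 101 CPM. On its strand it overlaps Gm43430, without shared exonic bases; this is a gene model of the annotation class TEC, which still awaits experimental support, and it measured a log2 fold change of -1.23 ± 0.50 (SE; adjusted p = 0.134, edgeR).

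Nfkb2 and Relb encode the non-canonical pair. Nfkb2 had 35.2, 22.5 and 25.7 CPM in MIZ1KO, against 20.7, 14.0, 11.4 and 21.45 CPM in Control. The groups did not overlap, with MIZ1KO replicate 2 next to Control replicate 4, and the log2 fold change of 0.71 ± 0.28 (SE) did not pass (adjusted p = 0.132, edgeR). Relb, the least counted of the 10 with 23 to 108 counts per library, had 10.5, 4.1 and 9.65 CPM in MIZ1KO, against 6.95, 3.58, 8.14 and 10.8 CPM in Control. The ranges overlap almost wholly, and its log2 fold change was 0.07 ± 0.43 (SE; adjusted p = 0.943, edgeR), an error too wide to tell no change from a moderate one. The log2 ratio of Nfkb2 to Nfkb1 was -1.65 ± 0.27 for MIZ1KO against -2.29 ± 0.54 for Control (SD over 3 and 4 libraries), a difference of 0.65 with an adjusted p of 0.286 by the exact permutation test (two-sided, adjusted over 4 ratios, smallest possible p 0.0286).

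Levels can be compared between genes only per length, so CPM was divided by the length in kilobases of each gene's principal transcript. On that scale Rel led the subunits in both groups, at 32.7 ± 2.57 CPM per kb in MIZ1KO and 43.0 ± 4.12 in Control, and Nfkb1 followed at 21.4 ± 5.29 and 19.9 ± 2.87 (SD, n = 3 and n = 4). Rela came after Nfkb1 in MIZ1KO, at 13.4 ± 1.49 CPM per kb, above Nfkb2 at 8.86 ± 2.11, whereas in Control Rela at 5.36 ± 0.71 and Nfkb2 at 5.38 ± 1.58 did not differ beyond their spread. Relb was lowest, at 3.66 ± 1.58 in MIZ1KO and 3.34 ± 1.36 in Control. As a share of the 5 subunits summed, Rela made up 16.8% ± 0.795 in MIZ1KO and 6.99% ± 1.01 in Control, and Rel 41.3% ± 5.23 in MIZ1KO and 55.9% ± 3.12 in Control. The summed level itself overlapped between the groups, from 67.5 to 86.5 CPM per kb in MIZ1KO and from 70.9 to 85.8 in Control. Shares and sums were not corrected for GC content, which is 42.5% for Rel and 59.4% for Rela. The part of GC content in them was not tested. Another transcript length for a gene would shift its level against other genes and the shares and sums, and a difference in isoform use between the genotypes was not tested.

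**Figure D2:**
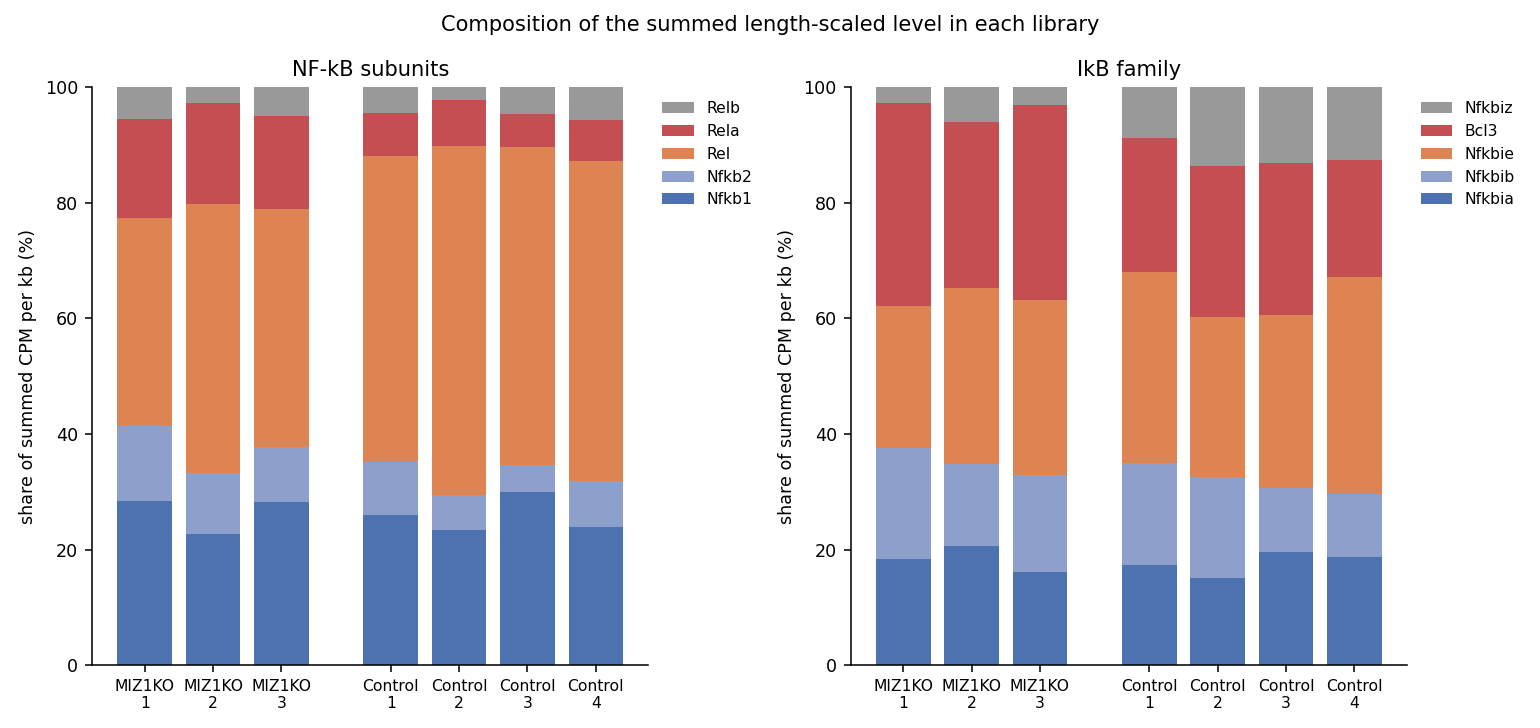
Share of each gene in the summed CPM per kb of the 5 NF-kB subunits (left) and of the 5 IkB family genes (right), 1 stacked bar per library with the 3 MIZ1KO libraries to the left of the 4 Control libraries. Rela takes 15.9% to 17.5% of the subunits in MIZ1KO and 5.61% to 7.98% in Control, and Nfkbiz takes 2.78% to 6.002% of the IkB family in MIZ1KO and 8.83% to 13.6% in Control. The shares are not corrected for GC content.

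Among the IkB genes, Bcl3 had 41.4, 27.7 and 46.3 CPM in MIZ1KO, against 18.0, 19.9, 19.7 and 14.0 CPM in Control. All MIZ1KO libraries lay above all Control libraries, with MIZ1KO replicate 2 the nearest to them. Mean levels were 38.5 ± 9.66 CPM for MIZ1KO against 17.9 ± 2.72 CPM for Control (SD over 3 and 4 libraries), and the log2 fold change was 1.10 ± 0.25 (SE) with an adjusted p of 0.0211 (edgeR). Bcl3 (ENSMUSG00000053175) lies on chromosome 7 from 19808462 to 19822770, on the minus strand. The antisense models Gm16174 and Gm16175 overlap it, with at most 3 counts in any library. Leaving out any 1 of 4 libraries ended the call, with adjusted p = 0.115 for MIZ1KO replicate 1, 0.0773 for MIZ1KO replicate 3, 0.0514 for Control replicate 2 and 0.065 for Control replicate 4, and over all 20 alternatives the edgeR, DESeq2 and limma adjusted p ran from 0.00222 to 0.344.

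Nfkbiz, which encodes the inducible nuclear protein IkBzeta, was the one IkB gene measured lower. It had 7.31, 12.9 and 9.49 CPM in MIZ1KO, against 15.2, 22.9, 21.8 and 19.2 CPM in Control. The groups did not overlap, and the log2 fold change was -0.99 ± 0.31 (SE). It did not pass in edgeR (adjusted p = 0.0625), while DESeq2 gave an adjusted p of 0.031 and limma-voom 0.0797. Nfkbiz (ENSMUSG00000035356) lies on chromosome 16 from 55811375 to 55838899, on the minus strand.

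The 3 classical IkB genes, whose proteins hold dimers in the cytoplasm, all measured higher without passing. Nfkbia, which encodes IkBalpha, the inhibitor that dimers resupply as feedback, had 18.6, 17.0 and 19.0 CPM in MIZ1KO, against 11.4, 9.8, 12.5 and 11.03 CPM in Control. The 2 groups were each tight and did not overlap, and the log2 fold change was 0.70 ± 0.28 (SE; adjusted p = 0.13, edgeR). Nfkbib, which encodes IkBbeta, had 25.1, 15.2 and 25.4 CPM in MIZ1KO, against 15.3, 14.8, 9.19 and 8.32 CPM in Control. MIZ1KO replicate 2 lay within the Control range, and the log2 fold change was 0.89 ± 0.31 (SE; adjusted p = 0.0922, edgeR). Nfkbie, which encodes IkBepsilon, had 38.4, 38.9 and 54.7 CPM in MIZ1KO, against 33.6, 27.5, 29.4 and 34.1 CPM in Control. The groups did not overlap, and the log2 fold change was 0.49 ± 0.22 (SE; adjusted p = 0.189, edgeR).

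The balance among the 3 classical genes was compared by ratio, and no difference passed. The log2 ratio of Nfkbib to Nfkbia was 0.23 ± 0.34 for MIZ1KO against 0.04 ± 0.53 for Control (SD over 3 and 4 libraries), with an adjusted p of 0.629 in the exact permutation test. That of Nfkbie to Nfkbia was 1.24 ± 0.25 in MIZ1KO and 1.46 ± 0.17 in Control, with an adjusted p of 0.305 in the same exact test. Per length, the 5 IkB family genes summed to 52.2, 63.9 and 74.2 CPM per kb from the lowest to the highest MIZ1KO library. The Control libraries ran from 37.3 to 41.9 CPM per kb, without overlap. Only Bcl3 of these genes passed in edgeR, and neither the sum nor the shares were corrected for GC content. Bcl3 and Nfkbie were the highest of them in both groups. Bcl3 led at 20.8 ± 5.22 CPM per kb in MIZ1KO, not beyond the spread of Nfkbie at 18.1 ± 3.81, and in Control Nfkbie at 12.8 ± 1.31 exceeded Bcl3 at 9.68 ± 1.47. The share of Bcl3 was 32.5% ± 3.36 in MIZ1KO and 24.0% ± 2.86 in Control, and that of Nfkbiz 3.96% ± 1.77 in MIZ1KO and 12.0% ± 2.16 in Control.

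Nfkb2 and Nfkbib have neighbours that could share reads, and no source used here gives whether counting used strand. Nfkbib overlaps Sirt2 by 42 exonic bases on the opposite strand, and Sirt2 measured -0.17 ± 0.25 on the log2 scale (SE; adjusted p = 0.73, edgeR). Nfkb2 overlaps Psd by 299 exonic bases, and Psd had at most 23 counts in any library. Nfkb2 also shares 531 exonic bases with AC114539.1, a lncRNA model on the opposite strand that was not analysed here. Nfkbib also overlaps Ccer2 by 314 exonic bases, with at most 6.03 counts.

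Fold changes over all tested genes moved with the GC content of the transcripts. Over the 11583 tested genes with a value, Spearman's rho between the GC content of the principal transcript and the log2 fold change was 0.48 across genes, which are not independent replicates. The median log2 fold change was -0.47 in the lowest of 5 equal bins of GC content and 0.41 in the highest bin. Rel, at 42.5% GC, sits in the lowest bin, and Nfkb2, Rela, Relb, Bcl3, Nfkbib and Nfkbie, at 55.7% to 62.6%, in the highest, where 5.65% of genes were called higher and 20.1% had MIZ1KO libraries above Control without overlap. Nfkbiz, at 50.1%, lay well below the median of its own bin, -0.04. Relb, at 61.1%, measured 0.07 ± 0.43 (SE), below the median of the highest bin but with a wide error. After a correction for GC content and length, chosen after the data were seen, Rela kept its call with a log2 fold change of 0.93 ± 0.23 (SE; adjusted p = 0.0348, edgeR) and Bcl3 lost it at 0.55 ± 0.23 (SE; adjusted p = 0.173, edgeR). Rel then measured -0.03 and Nfkbiz -0.91. The part of GC content in the uncorrected fold changes was not tested beyond this, and the correction also removes any change of the transcripts that itself follows GC content.

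**Figure D3:**
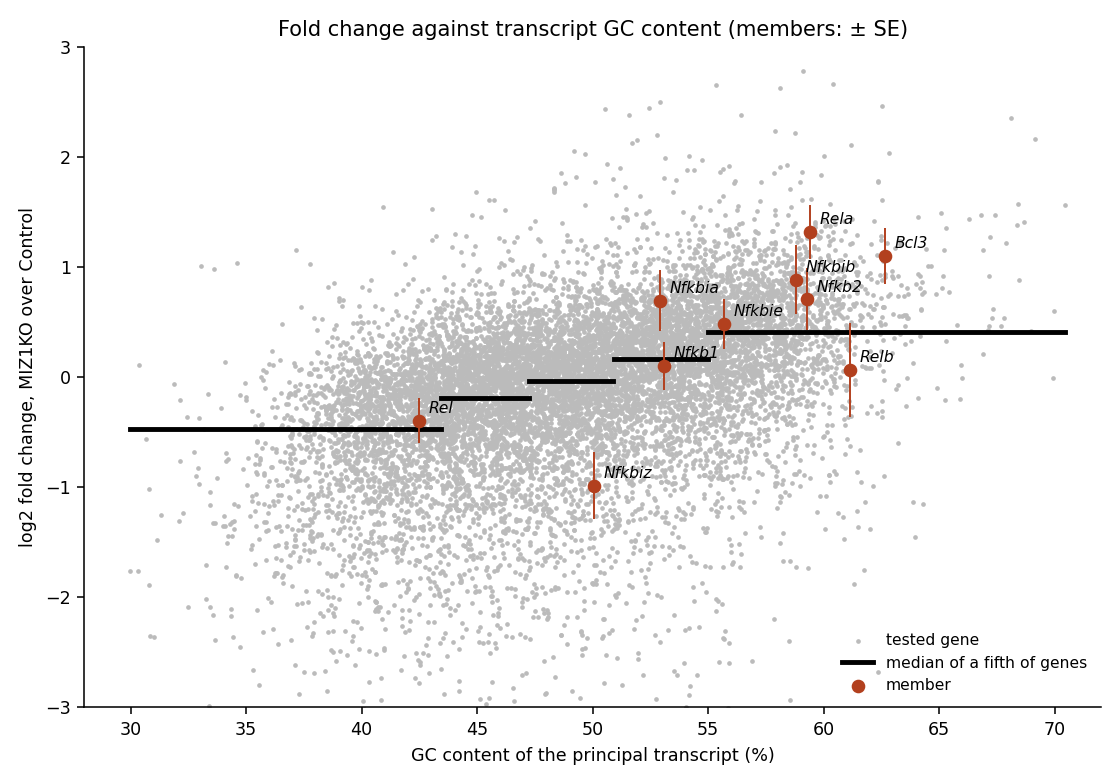
Log2 fold change of MIZ1KO over Control against the GC content of the principal transcript, with each tested gene in grey, the median of each of 5 equal bins of genes as a black line, and the 10 members in red with ± SE; genes beyond 3 in either direction lie outside the axis. Medians run from -0.47 at low GC content to 0.41 at high GC content, with Rela and Bcl3 above the line of their bin and Nfkbiz below its own.

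Other quantities of the libraries moved with genotype too. Models of the class TEC took 0.544% to 0.923% of non-ribosomal counts in MIZ1KO and 1.02% to 2.58% in Control. Malat1, a nuclear non-coding RNA, took 0.256% to 0.490% in MIZ1KO and 0.687% to 1.52% in Control, and its part in the results was not tested. With the TEC share as a covariate, which does not overlap between the groups and so cannot be told apart from genotype, Rela measured 1.22 ± 0.44 (SE; adjusted p = 0.143, edgeR), Bcl3 1.305 ± 0.44 (SE; adjusted p = 0.124, edgeR) and Nfkbiz -0.56 ± 0.54 (SE; adjusted p = 0.644, edgeR). Library totals ran from 6896673 to 9482453 counts, of which 3087992 to 5085019 lay outside ribosomal RNA. Zbtb17, which encodes MIZ1, measured 4.45 ± 0.732 CPM in MIZ1KO and 4.18 ± 1.89 CPM in Control (SD, n = 3 and n = 4), and counts over a whole gene do not check a deletion of part of it. The 9 germinal centre B cell markers summed to 2448 to 2677 CPM in MIZ1KO and 2578 to 2981 CPM in Control. The 5 light zone markers, Nfkbia among them, summed to 583 to 668 CPM in MIZ1KO and 495 to 694 CPM in Control. The 6 T cell markers summed to 1.72 to 16.9 CPM in MIZ1KO and 0.131 to 1.56 CPM in Control, none was at 0 in all libraries, and their part in the results was not tested. The 5 naive follicular B cell markers summed to 348 to 419 CPM in MIZ1KO and 297 to 342 CPM in Control, again without overlap, and their part was not tested either. In bulk samples, fewer cells of a type and less RNA per cell cannot be told apart.

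Around the 10 genes, 94 genes of the NF-kB pathway were taken in 7 lists by role, of which 86 were tested. Cd79a and Gadd45b rose, none fell, and the other 84 did not pass, against 5.96% called over all genes. Of the 86, 19 had an unadjusted p under 0.05, where 24.6% of all genes did. DESeq2 called 4 of the 86 higher (Cd79a, Cd79b, Gadd45b and Ltb) and 3 lower (Ikbkb, Nkiras1 and Map3k8). Over all 11618 genes DESeq2 called 423 higher and 697 lower. Limma-voom called Cd79a and Ltb higher and none lower, against 127 higher and 215 lower over all 11618 genes. The median log2 fold change over the 86 was 0.10, with 53 above 0.

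Of the receptors that feed NF-kB, 9 of 12 were tested, with a median of 0.26. Cd79a, the Ig-alpha chain of the B cell receptor, rose by a log2 fold change of 0.86 ± 0.22 (SE; adjusted p = 0.0333, edgeR). Cd79b, the Ig-beta chain, measured 0.80 ± 0.24 (SE; adjusted p = 0.0556, edgeR), and Tlr9, the receptor for unmethylated CpG DNA, 0.52 ± 0.20 (SE; adjusted p = 0.119, edgeR). Ltbr was at 0 counts in all libraries, and Tnfrsf17 and Tnfrsf1a had at most 3. For Cd79a the call was lost when 1 of 4 libraries was left out (MIZ1KO replicates 1 and 3, Control replicates 2 and 4). Adjusted p-values then ran from 0.0946 to 0.129 in edgeR. The call was also lost with the TEC covariate (0.61, adjusted p = 0.283, edgeR) and with the replicate number as a block (adjusted p = 0.0733, edgeR). With the GC and length correction, chosen after the data were seen, Cd79a and Cd79b were called higher.

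None of the 25 adaptors, kinases and ubiquitin ligases passed in edgeR, and their median was 0.08. Of the 25, 4 had an unadjusted p under 0.05, where 24.6% of all genes did. Birc3, a ubiquitin ligase named here after its values were seen, was called higher with the GC and length correction and measured 0.43 ± 0.20 without it (SE; adjusted p = 0.194, edgeR). Ikbkb, which encodes the IKKbeta kinase that phosphorylates the classical IkBs, had 24.9, 47.0 and 57.3 CPM in MIZ1KO, against 59.8, 70.2, 83.6 and 92.8 CPM in Control. The groups did not overlap, and the log2 fold change was -0.84 ± 0.26 (SE; adjusted p = 0.0618, edgeR; adjusted p = 0.0461 in DESeq2). It measured -0.51 without MIZ1KO replicate 1 and -0.05 with the TEC covariate. Myd88, the adaptor of Toll-like receptors, measured 0.91 ± 0.35 (SE; adjusted p = 0.118, edgeR), and Prkcb, the protein kinase C that links the B cell receptor to NF-kB, 0.45 ± 0.18 (SE; adjusted p = 0.143, edgeR).

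Among the 5 genes of the ubiquitin ligase that turns over IkBs, the 12 negative regulators and the 6 nuclear partners, 0 passed in edgeR, in DESeq2 and in limma-voom. In edgeR 0 of them had an unadjusted p under 0.05, where 24.6% of all genes did. The medians of the lists were 0.07, 0.03 and 0.28. Among the nearest to passing were Cul1 at 0.15 ± 0.22, Btrc at 0.24 ± 0.47 and Fbxw11 at -0.10 ± 0.28, then Pdlim2 at 0.48 ± 0.32, Cyld at -0.25 ± 0.20 and Otulin at 0.29 ± 0.23, and Crebbp at 0.37 ± 0.21 (log2 fold change ± SE). Their adjusted p-values in edgeR ran from 0.306 to 0.864.

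Of 6 other genes that bind NF-kB or resemble IkBs, 0 passed in edgeR and 2 had an unadjusted p under 0.05, where 24.6% of all genes did. Nkiras1, a small GTPase-like protein that binds IkBs, had 2.58, 6.89 and 2.57 CPM in MIZ1KO, against 6.3, 9.64, 11.2 and 14.0 CPM in Control, with MIZ1KO replicate 2 inside the Control range. Its log2 fold change was -1.31 ± 0.44 (SE; adjusted p = 0.0822, edgeR; adjusted p = 0.0481 in DESeq2). Nfkbil1 measured 1.45 ± 0.56 (SE; adjusted p = 0.12, edgeR) at under 5 CPM, and Nfkbid, the nuclear IkBNS, 0.74 ± 0.37 (SE; adjusted p = 0.227, edgeR).

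Of 28 target genes, 23 were tested, and their median was 0.08 with 12 above 0. Of the 23, 10 had an unadjusted p under 0.05 and 7 had groups that did not overlap, where 24.6% and 19.5% of all genes did. The 10 went in both directions. Of the 7, MIZ1KO lay higher for Gadd45b and Ltb and lower for Map3k8, Cd86, Slamf1, Fas and Tnfaip8. Gadd45b and Ltb, at 56.9% and 62.6% GC, sit in the highest bin of GC content, with its median of 0.41. Map3k8, Cd86, Slamf1 and Fas, at 43.2% to 45.3%, sit in low bins with medians of -0.47 and -0.19. Tnfaip8 has 52.1%. With the GC and length correction 0 of the 23 were called, and the part of GC content in these directions was not tested. Cd86, Slamf1, Fas and Tnfaip8 are named here after their values were seen. Gadd45b, a stress sensor, rose by 0.94 ± 0.27 (SE; adjusted p = 0.0497, edgeR), just inside the threshold; its call ended in 6 of 7 fits that left out 1 library, with adjusted p-values from 0.0845 to 0.141, and held without Control replicate 1 (0.00997). It also ended in limma-voom (adjusted p = 0.0523), in edgeR among protein-coding genes (0.059) and with the GC and length correction (0.0888). The older edgeR fit (adjusted p = 0.0676) and the replicate number as a block (adjusted p = 0.0791, edgeR) ended it too. With the TEC covariate Gadd45b measured 0.13 (adjusted p = 0.915, edgeR). Ltb, the membrane lymphotoxin beta chain, measured 1.05 ± 0.31 (SE; adjusted p = 0.0535, edgeR) and Map3k8, the kinase bound by p105, -1.39 ± 0.45 (SE; adjusted p = 0.0739, edgeR). Bcl2a1a, Cd80, Ccl3, Ccl4 and Il10 did not pass the filter, and the Bcl2a1 genes are near-identical copies whose shared reads are uncertain.

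**Figure D4:**
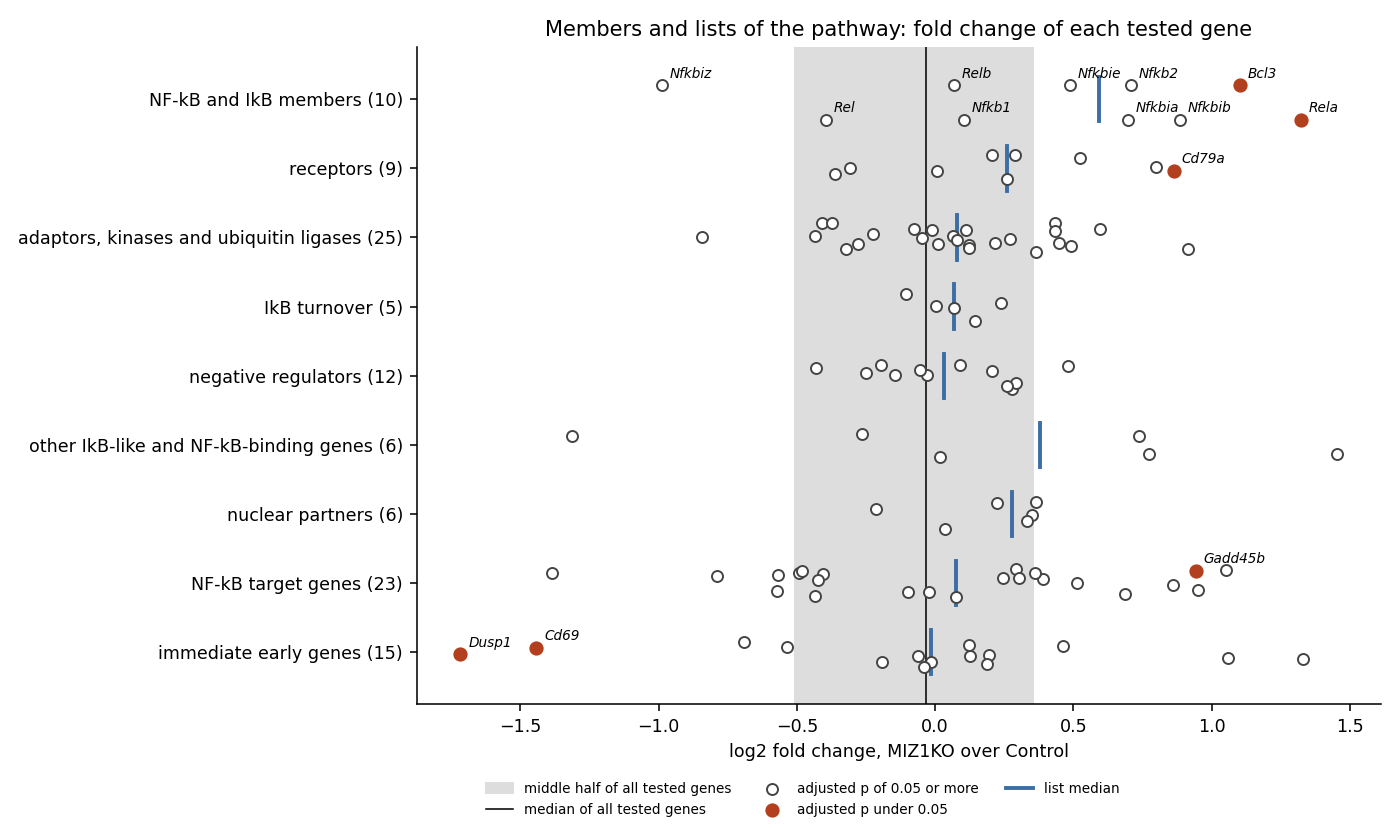
Log2 fold change of MIZ1KO over Control for the 10 members and for each tested gene of the lists, with the number tested in parentheses; filled points passed an adjusted p of 0.05, blue lines are list medians, and the grey band holds the central part of all tested genes. The members' median of 0.59 lies right of the band, whereas the medians of the adaptors (0.08), negative regulators (0.03) and targets (0.08) lie near that of all genes (-0.03); after the GC and length correction, which is not drawn, the members' median was 0.29 and that of all genes 0.09.

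Immediate early genes, which respond to stimulation and to handling, were set beside them because Nfkbia and Nfkbiz are also rapidly induced. Of 15 tested, Cd69, a surface activation marker, and Dusp1, a phosphatase of MAP kinases, fell, where edgeR called 4.05% of all genes lower. In edgeR, DESeq2 and limma-voom 0 rose. Of the 15, 3 had an unadjusted p under 0.05, where 24.6% of all genes did, and the median was -0.01. Cd69 fell by 1.44 ± 0.29 on the log2 scale (SE; adjusted p = 0.0143, edgeR) and Dusp1 fell by 1.72 ± 0.40 (SE; adjusted p = 0.0218, edgeR). Junb measured 1.06 ± 0.37 (SE; adjusted p = 0.0912, edgeR). Without MIZ1KO replicate 1 or Control replicate 4 both calls ended (Cd69 at 0.0564 and 0.0568, Dusp1 at 0.134 and 0.0784), and that of Dusp1 also without Control replicate 2 (0.0531), all in edgeR. With the GC and length correction Cd69 measured -0.88 (adjusted p = 0.0906, edgeR) and lost its call, while Dusp1 kept it. The TEC covariate ended both, with Cd69 at -1.52 (adjusted p = 0.0976, edgeR) and Dusp1 at -0.96 (adjusted p = 0.518, edgeR).

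**Figure D5:**
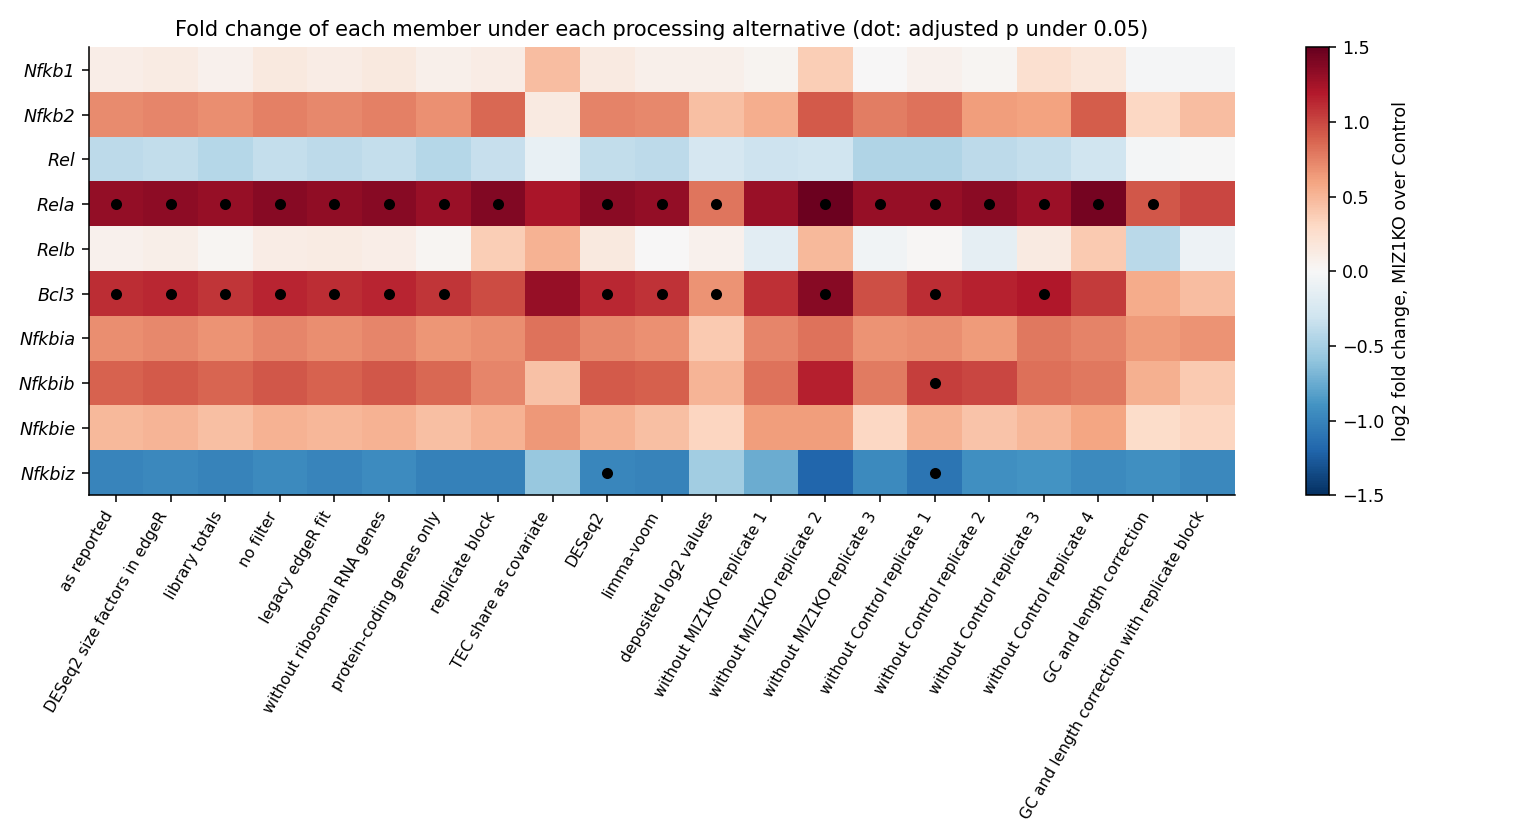
Log2 fold change of each member (rows) under each processing alternative (columns), with colour from blue for lower to red for higher in MIZ1KO and a dot where the adjusted p was under 0.05. Rela carries a dot in 17 of the 20 alternatives and Bcl3 in 12, Nfkbiz in 2 and Nfkbib in 1; Nfkb1 and Relb change sign in some.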

How the data were processed

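The authors deposited expected counts per gene, which are estimates and may be fractional, without normalization. Per the submitters' processing notes, the tools were STAR 2.5.2, RSEM 1.3.0, DESeq2 1.18.1 and R 3.4.3 and the build GRCm38, with no role or order recorded. No source used here gives the annotation release, strand setting or treatment of shared reads. The log2 values that the authors deposited, under a file name that speaks of variance stabilisation, served as an alternative.

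Samples were grouped by the genotype label. Counts were rounded (6.61% of values were not whole), filtered with filterByExpr, scaled by TMM and tested by edgeR 4.0.16 (quasi-likelihood, newer fit, robust; R 4.3.3), MIZ1KO over Control, two-sided, adjusted over all tested genes; limma 3.58.1 and DESeq2 1.42.0 were alternatives. The SE of a log2 fold change was computed from its F statistic. The method was tested on simulated data. Log2 CPM used a prior count of 2. Symbols, coordinates and transcripts came from GENCODE vM21 on GRCm38, and the principal transcript was the APPRIS principal one or else the longest.

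The members and lists were chosen with earlier results of these data known. Named were the 10 members, from each list the genes that passed or, up to 3, those of smallest p, Zbtb17, and genes overlapping a member; 2 genes this rule named are not reported here. Within groups, Spearman correlations of log2 CPM across genes ran from 0.906 to 0.949 and the chi-square per degree of freedom was at least 14.7. No library was thus a repeat sequencing of another in its group. Whether libraries share an animal or an RNA sample was not tested.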

Additional observations from a re-analysis of the deposited data

How the results depend on the processing

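Of 692 genes called, alternatives gave 297 with the TEC share as a covariate, 1120 in DESeq2, 342 in limma-voom, 315 among protein-coding genes only, 385 once GC content and length were corrected for, and 137 when the replicate block was added to that; leaving out 1 library gave 39 to 1350, the lowest without MIZ1KO replicate 1 and the highest without Control replicate 1. The calls were higher in MIZ1KO in 31.9% of cases, in 59.0% with the GC and length correction, in 48.2% with that correction and the replicate block, in 41.3% without ribosomal RNA genes, in 44.4% among protein-coding genes and in 15.8% with the TEC covariate; leaving out 1 library gave 20.5% to 60.4%. Of the 10 members, 2 were called; the replicate block and the GC and length correction left 1 (Rela), the TEC covariate and the GC and length correction with the replicate block 0, and leaving out 1 library gave 0 to 4. The cause was not tested, beyond the smaller number of samples.

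The replicate numbers of the titles gave correlations of deviations of 0.02, 0.07 and 0.16 for the same-numbered pairs. Pairs with different numbers ran from -0.16 to 0.13. These values do not settle whether equal numbers mark a pair or a shared batch, and the labels state neither. With the replicate block 476 genes were called, and Control replicate 4, the only library of its number, adds nothing to the genotype difference. Rela then measured 1.38 (adjusted p = 0.0133, edgeR) and Bcl3 0.98 (adjusted p = 0.052, edgeR). The ratios of members then gave differences of -1.71, 0.76, 0.04 and -0.16, where 3 pairs cannot go below p = 0.25 in an exact sign-flip test. The ratio of Nfkbib to Nfkbia turned to -0.11 with the GC and length correction. The same correction turned Nfkb1 to -0.023, Relb to -0.40, Fbxw11 to 0.062, Cyld to 0.049 and Zbtb17 to -0.33, and with the replicate block added it gave Nfkb1 -0.017, Relb -0.080 and Cyld 0.033. The TEC covariate turned Pdlim2 to -0.31, Otulin to -0.21 and Ltb to -0.12, and the fit to protein-coding genes turned Zbtb17 to -0.00083. Leaving out 1 library gave Relb from -0.16 to 0.48, Zbtb17 from -0.093 to 0.51 and Fbxw11 from -0.29 to 0.062. Low depth limits Relb among the members, and Btrc, Zbtb17, Map3k8, Nfkbil1 and Nkiras1 among the other named genes.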
